A study of Rattus norvegicus with 20 samples.

Results

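The genes described here are the 4 LIM-only genes *Lmo1*, *Lmo2*, *Lmo3* and *Lmo4* and the 2 LIM domain-binding genes *Ldb1* and *Ldb2*. They were taken by symbol and are 6 of the 31038 genes listed in the count matrix of the medial prefrontal cortex (mPFC). All 6 are among the 16605 genes that passed a filter on low counts. The group was chosen by the difference of *Lmo2* between LSD-treated rats and controls, which was among the strongest decreases in the data, so this difference is given as a description without a test. The other 5 genes were taken because they belong with *Lmo2* by name and by binding partner, with earlier results of these data known.

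LIM-only proteins consist of little more than a pair of zinc-binding LIM domains. They do not bind DNA themselves, but link DNA-bound transcription factors to LDB proteins. LDB proteins bind LIM domains and pair with each other, and in that way bring distant DNA-bound factors together. The same LDB surface also binds LIM-homeodomain transcription factors, so that LIM-only proteins and LIM-homeodomain factors can compete for it. *Lmo2* is best known from blood and endothelial cells, and *Lmo4* from the developing cerebral cortex.

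RNA was sequenced from the mPFC of 20 male Sprague-Dawley rats, with 1 library per rat. The 10 LSD-treated rats received intraperitoneal LSD at 0.16 mg/kg on alternate days over 90 days, the 10 controls received sterile saline on the same schedule, and all rats were then left without injections. The labels put the drug-free interval at 3 weeks and the rats' age at the start at 6 to 8 weeks, and the study's methods give a longer interval and an older age for both groups. The question is which genes still differ in level after the drug has been stopped.

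Reads on genes ranged from 16346629 to 25552681 per LSD-treated rat and from 11098076 to 24201351 per control. Levels are given as RPM, the reads of a gene per 1000000 reads on genes, after TMM normalisation, a scaling that removes differences in library composition. A gene is called changed if its adjusted p in edgeR's quasi-likelihood test across all tested genes is under 0.05. Markers of excitatory, upper-layer, deep-layer and inhibitory cortical neurons were detected, and the first marker of each list, among them *Slc17a7* and *Cux2*, had reads in every library. A set of 7 markers of striatal neurons, a neighbouring region, set 4 libraries apart: they summed to 451 RPM in LSD-treated rat 9 and to 522, 656 and 609 RPM in controls 2, 8 and 9, against 197 to 292 RPM in the other 16. The same 4 libraries also had the highest sums of oligodendrocyte markers, at 5979, 7724, 7718 and 6625 RPM, against at most 5633 RPM in the other 16. A shift seen without them therefore cannot be tied to striatal content alone. Results that rest on these libraries are given with and without them. In bulk tissue, fewer cells of a type and less RNA per cell cannot be told apart.

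*Lmo2* encodes the bridging subunit of complexes that hold TAL1 and GATA factors together with LDB1. It was detected with 117 to 337 reads per library. In LSD-treated rats its level had a lowest value of 7.40, a median of 9.56 and a highest value of 11.8 RPM. In controls the corresponding values were 11.0, 13.1 and 16.0 RPM. The groups overlapped little: 9 LSD-treated rats lay below the lowest control, and 9 controls lay above the highest LSD-treated rat. The lowest control was rat 8, which is one of the libraries with high striatal markers. Mean levels were 9.24 ± 1.34 RPM in LSD-treated rats and 13.4 ± 1.54 RPM in controls (SD, n = 10 each). This is a log2 fold change of -0.53 (SE 0.085), a change of -30.8%. The group of genes was chosen by this difference, so the SE and the ranks that follow describe it and are no test. Among all tested genes 159 had a lower log2 fold change, but most of them were low in abundance: of the 9357 genes at or above the mean level of *Lmo2*, 17 had a lower one. Without the 4 libraries the log2 fold change of *Lmo2* was -0.56.

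*Lmo1*, like *Lmo2* an oncogene of T-cell leukaemia, is normally expressed mainly in the nervous system. It was down-regulated in LSD-treated rats, and was the only one of the 5 other genes called, while 8.54% of all tested genes were called lower and 6.48% higher. Its level ran from 8.18 over a median of 10.3 to 11.3 RPM in LSD-treated rats. In controls it ran from 9.86 over 13.3 to 17.7 RPM. Every LSD-treated rat lay below the control median and 3 lay below the lowest control, rat 10, which was the only control within the range of the LSD-treated rats. Means were 10.1 ± 1.02 and 13.3 ± 2.14 RPM (SD, n = 10 each), and the log2 fold change was -0.40 (SE 0.087, 95% interval -0.58 to -0.22, adjusted p = 0.00755), and the level fell by 24.3%. The highest control, rat 9, is among the libraries with high striatal markers. Without those 4 libraries the log2 fold change was -0.28 (adjusted p = 0.0284). Among the 500 tested genes closest to *Lmo1* in abundance, 12 had a lower log2 fold change, and among those closest to *Lmo2*, 2 had one lower than *Lmo2*.

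**Figure D1:**
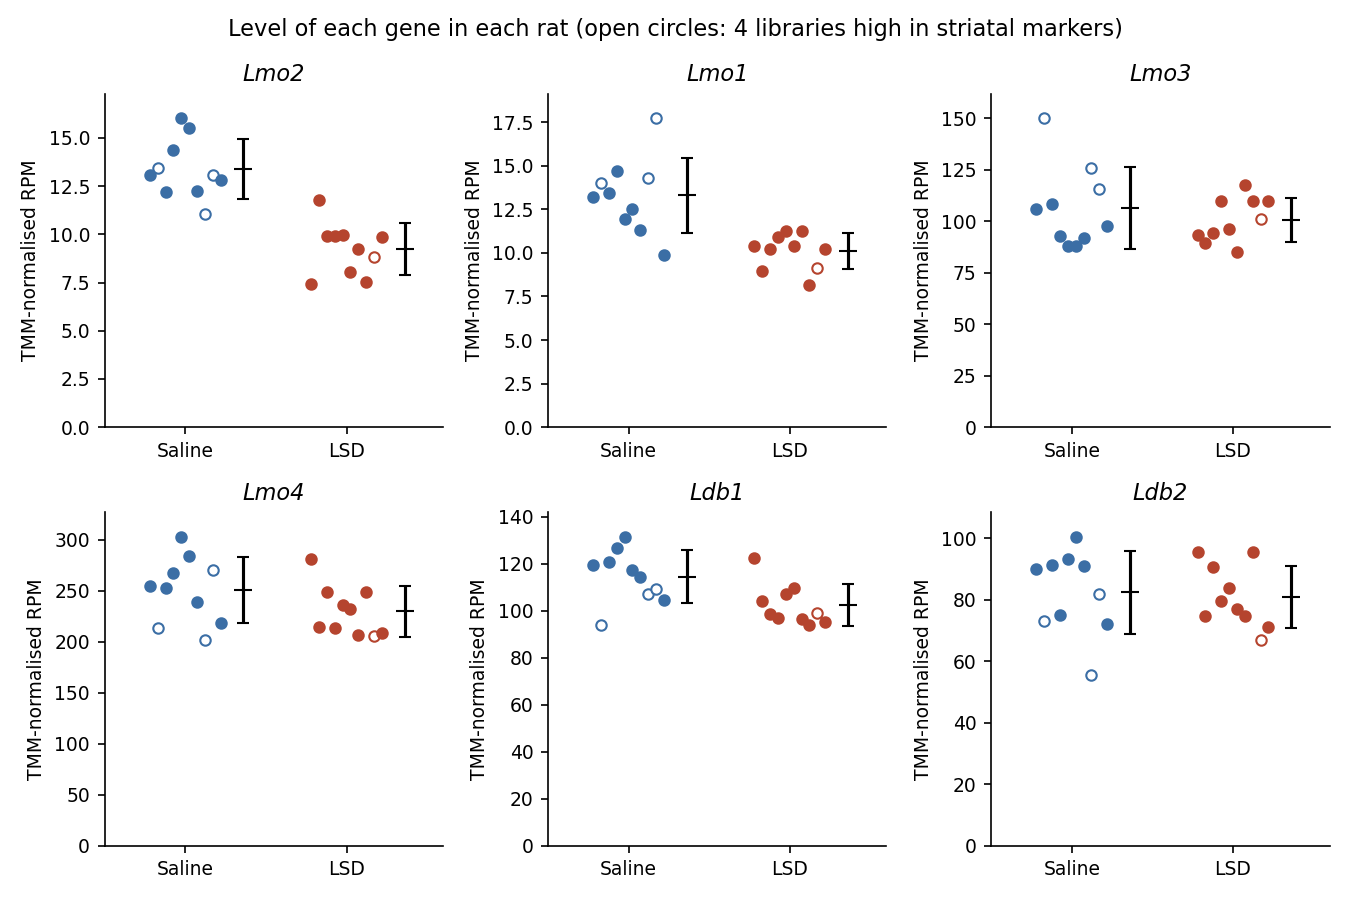
Level of each of the 6 genes in each rat, in TMM-normalised RPM, with LSD-treated rats and controls side by side, bars for the mean and SD and open circles for the 4 libraries with high striatal markers. The LSD-treated rats end at 11.8 RPM for Lmo2 and 11.3 RPM for Lmo1, where all but 1 control lie above, while the groups overlap widely for Lmo3 and Ldb2.

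*Lmo3*, a LIM-only gene of neurons that is also known from neuroblastoma, did not pass the test. Its level ran from 85.1 over 98.4 to 118 RPM in LSD-treated rats and from 87.7 over 102 to 150 RPM in controls. The ranges overlapped almost entirely, and the highest value belonged to control 2, a library with high striatal markers. The log2 fold change was -0.08 (SE 0.088, 95% interval -0.26 to 0.10, adjusted p = 0.576). Without the 4 libraries it was 0.07 (adjusted p = 0.514), so that the data give no direction for *Lmo3*.

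*Lmo4*, which is known for its uneven expression across cortical areas, did not pass the test either. It ran from 206 over 223 to 281 RPM in LSD-treated rats and from 202 over 253 to 303 RPM in controls. No LSD-treated rat lay below the lowest control, but 9 of 10 lay below the control median. The log2 fold change was -0.12 (SE 0.073, 95% interval -0.28 to 0.03, adjusted p = 0.259). It was -0.16 (adjusted p = 0.12) without the 4 libraries.

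*Ldb1* encodes the widely expressed LDB protein that LIM-only and LIM-homeodomain proteins share. Its level ran from 94.0 over 98.8 to 123 RPM in LSD-treated rats and from 93.8 over 116 to 132 RPM in controls. Of the LSD-treated rats 9 lay below the control median, and none lay below the lowest control, rat 2. The log2 fold change was -0.16 (SE 0.059, 95% interval -0.28 to -0.04), which is 10.6% lower, and missed the threshold with an adjusted p of 0.0669. The call depends on the libraries: without the 4 with high striatal markers, the log2 fold change of *Ldb1* was -0.21 (SE 0.060, adjusted p = 0.0188) and passed, while 10.4% of 16235 tested genes were called lower. It also passed with 1 rat left out, namely LSD-treated rat 1 (adjusted p = 0.0247), control 2 (0.018) or control 10 (0.0469).

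*Ldb2*, the second LDB gene, has a more restricted expression than *Ldb1*. It ran from 67.0 over 78.4 to 95.6 RPM in LSD-treated rats and from 55.5 over 86.1 to 101 RPM in controls. The lowest of all 20 values came from control 8, the library with the highest striatal markers. The log2 fold change of *Ldb2* was -0.02 (SE 0.089, 95% interval -0.21 to 0.16, adjusted p = 0.887). It was -0.09 (adjusted p = 0.456) without the 4 libraries, and 0.02 when libraries were scaled by total counts alone. With a correction for gene span, a measure of gene length on the genome, it was -0.15 (adjusted p = 0.307).

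**Figure D2:**
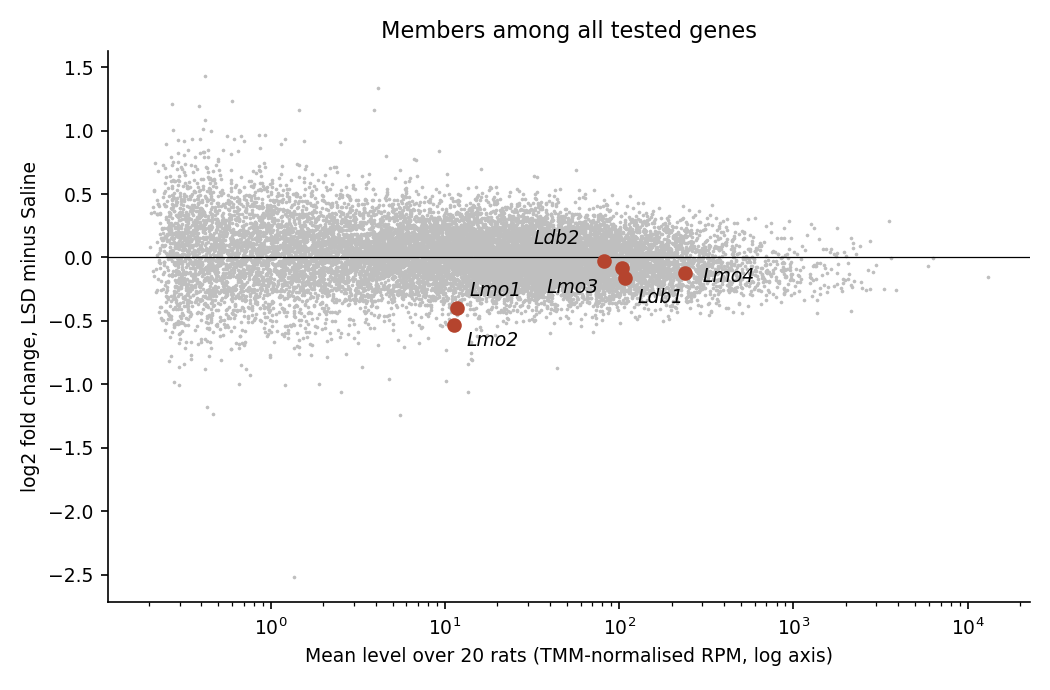
Log2 fold change of LSD against saline for each of the 16605 tested genes (grey) against its mean level over 20 rats in TMM-normalised RPM (log axis), with the 6 genes in red. Lmo2 at -0.53 and Lmo1 at -0.40 lie near the lower edge of genes of like abundance, and the other 4 lie between -0.16 and -0.02.

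The 6 genes differed in how much they varied between rats of the same group. The coefficient of variation was between 8.57% for *Ldb1* and 14.5% for *Lmo2* in LSD-treated rats, and between 9.74% for *Ldb1* and 18.6% for *Lmo3* in controls. On the log2 scale the SD within groups was 0.13 for *Ldb1* and 0.22 for *Ldb2*, with a median of 0.178 over all tested genes. *Ldb1* was thus the steadiest of the 6, and its difference of -0.16 was larger than its SD within groups. The differences of -0.53 for *Lmo2* and -0.40 for *Lmo1* stood beside SDs of 0.17 and 0.18.

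**Figure D3:**
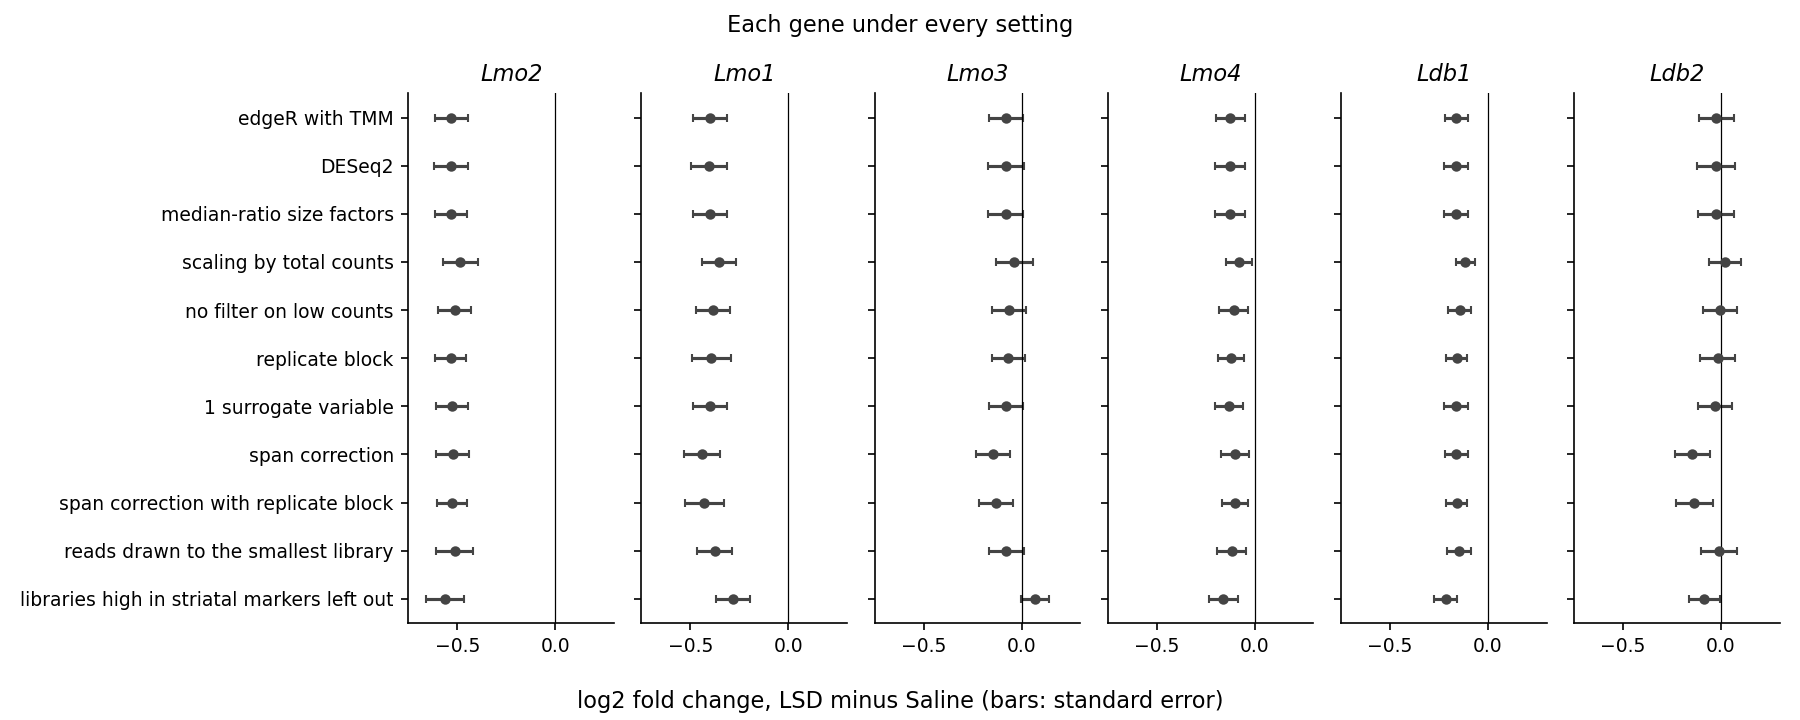
Log2 fold change of LSD against saline for each of the 6 genes (columns) under edgeR with TMM and 10 other settings (rows), with bars for the standard error. Lmo2 stays between -0.56 and -0.48 and Lmo1 between -0.44 and -0.28, while Lmo3 and Ldb2 cross 0 under 1 setting each.

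The reads of each gene were also set against those of *Ldb1* in the same library, which removes any scaling between libraries. These ratios are given without a test. The log2 ratio of *Lmo2* to *Ldb1* reads ran from -4.05 over -3.41 to -3.14 in LSD-treated rats and from -3.31 over -3.10 to -2.80 in controls. All 10 LSD-treated rats lay below the control median and 7 lay below the lowest control, with a difference between means of -0.38. The log2 ratio of *Lmo1* to *Ldb1* ran from -3.56 over -3.33 to -3.10 and from -3.46 over -3.17 to -2.62, with a difference of -0.23 in means and 3 LSD-treated rats below the lowest control. The differences for *Lmo3*, *Lmo4* and *Ldb2* relative to *Ldb1* were 0.09, 0.04 and 0.14. Without the 4 libraries, the difference was -0.36 for *Lmo2*, -0.07 for *Lmo1* and 0.28 for *Lmo3*, so that the lower ratio of *Lmo1* to *Ldb1* rested largely on these libraries and that of *Lmo2* did not.

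**Figure D4:**
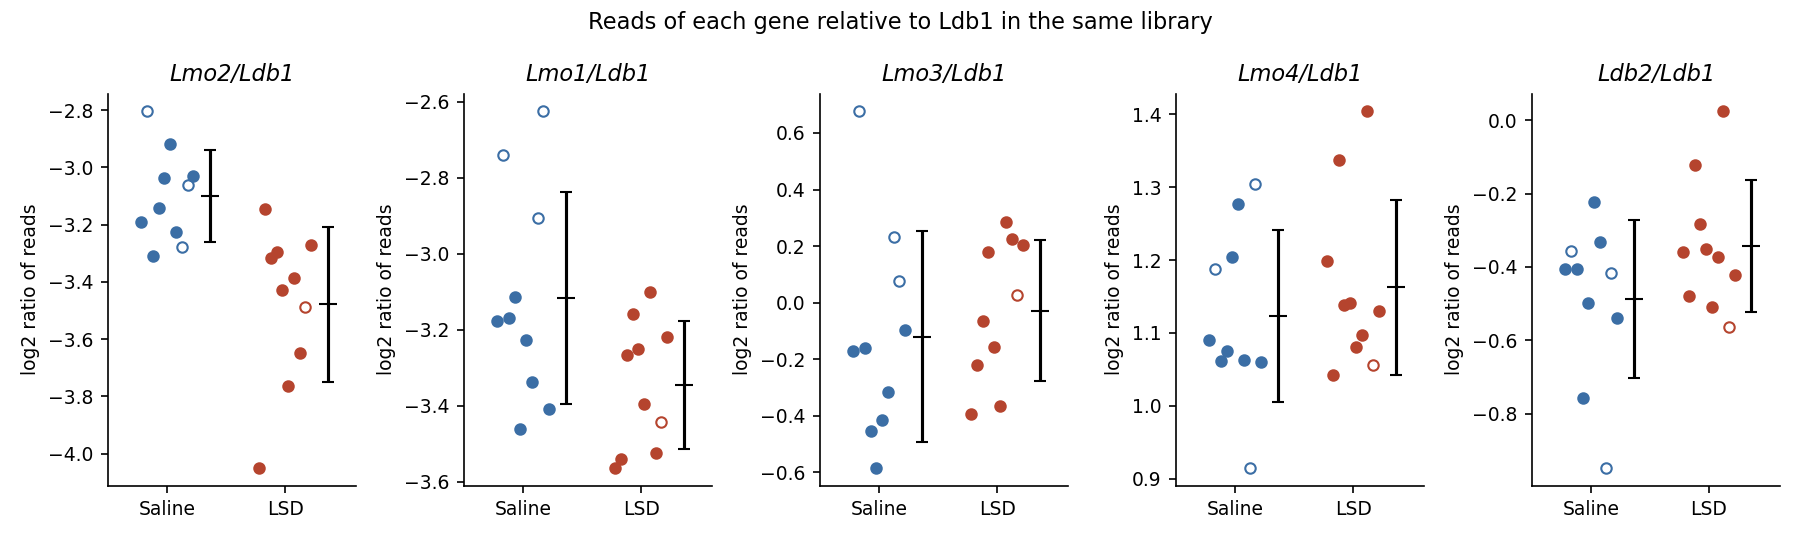
Log2 ratio of the reads of 5 genes to those of Ldb1 in the same library, for each rat, with bars for the mean and SD and open circles for the 4 libraries with high striatal markers. For Lmo2, 7 LSD-treated rats lie below the lowest control, and for Lmo3, Lmo4 and Ldb2 none does.

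Whether the genes rose and fell together from rat to rat was asked for all 15 pairs of the 6 genes, after subtracting group means, by a two-sided permutation test within groups with adjustment over the 15 pairs. Of these, 4 passed, and all of them were among *Lmo3*, *Lmo4*, *Ldb1* and *Ldb2*. With the replicate number as a block, 0 passed. With that block r was 0.79 for *Lmo4* and *Ldb2* (permutation test, adjusted p = 0.0963) and -0.74 for *Lmo3* and *Ldb1* (adjusted p = 0.104). It was 0.41 for *Lmo4* and *Ldb1* and -0.44 for *Lmo3* and *Lmo4* (adjusted p = 0.711 for both). *Lmo4* and *Ldb2* varied together most closely: Pearson's r was 0.82 (permutation p = 4e-05, adjusted p = 0.0006, n = 20) and Spearman's rho was 0.86 (permutation p = 1e-05, the smallest that 100000 resamples can give, adjusted p = 0.00015). Pearson's r was 0.91 in LSD-treated rats and 0.78 in controls. It was 0.74 without the 2 rats farthest from the median of *Lmo4*, and 0.76 (adjusted p = 0.0236 by permutation) without the 4 libraries with high striatal markers. Without those libraries r was 0.90 in LSD-treated rats and 0.58 in controls. *Ldb2* ranked 29th of 16604 genes by r to *Lmo4*, and *Lmo4* ranked 8th by r to *Ldb2*.

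*Lmo4* also varied with *Ldb1*, with r = 0.72 (permutation p = 0.0007, adjusted p = 0.0035) and rho = 0.64 (adjusted p = 0.024). The r was 0.62 in LSD-treated rats (rho = 0.36, permutation p = 0.314) and 0.78 in controls (rho = 0.72, permutation p = 0.0236). It was 0.64 without the 2 farthest rats and 0.71 (adjusted p = 0.0236) without the 4 libraries. *Lmo3* went the other way: its r to *Ldb1* was -0.74 (permutation p = 0.00045, adjusted p = 0.00337), with rho = -0.69 (adjusted p = 0.0147). This relation rests in part on the libraries with high striatal markers, since it was -0.54 (adjusted p = 0.19) without them. In LSD-treated rats this r was -0.70 both with and without those libraries. In controls it was -0.78 with them and -0.22 without them. Over all rats it was -0.58 without the 2 rats farthest from the median of *Lmo3*. The r of *Lmo3* to *Lmo4* was -0.58 (permutation p = 0.0123, adjusted p = 0.046), with rho = -0.52 (adjusted p = 0.103). It was -0.36 without the 2 rats farthest from the median of *Lmo3* and -0.45 (adjusted p = 0.318) without the 4 libraries. The part of striatal and oligodendrocyte content in these relations was not tested.

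**Figure D5:**
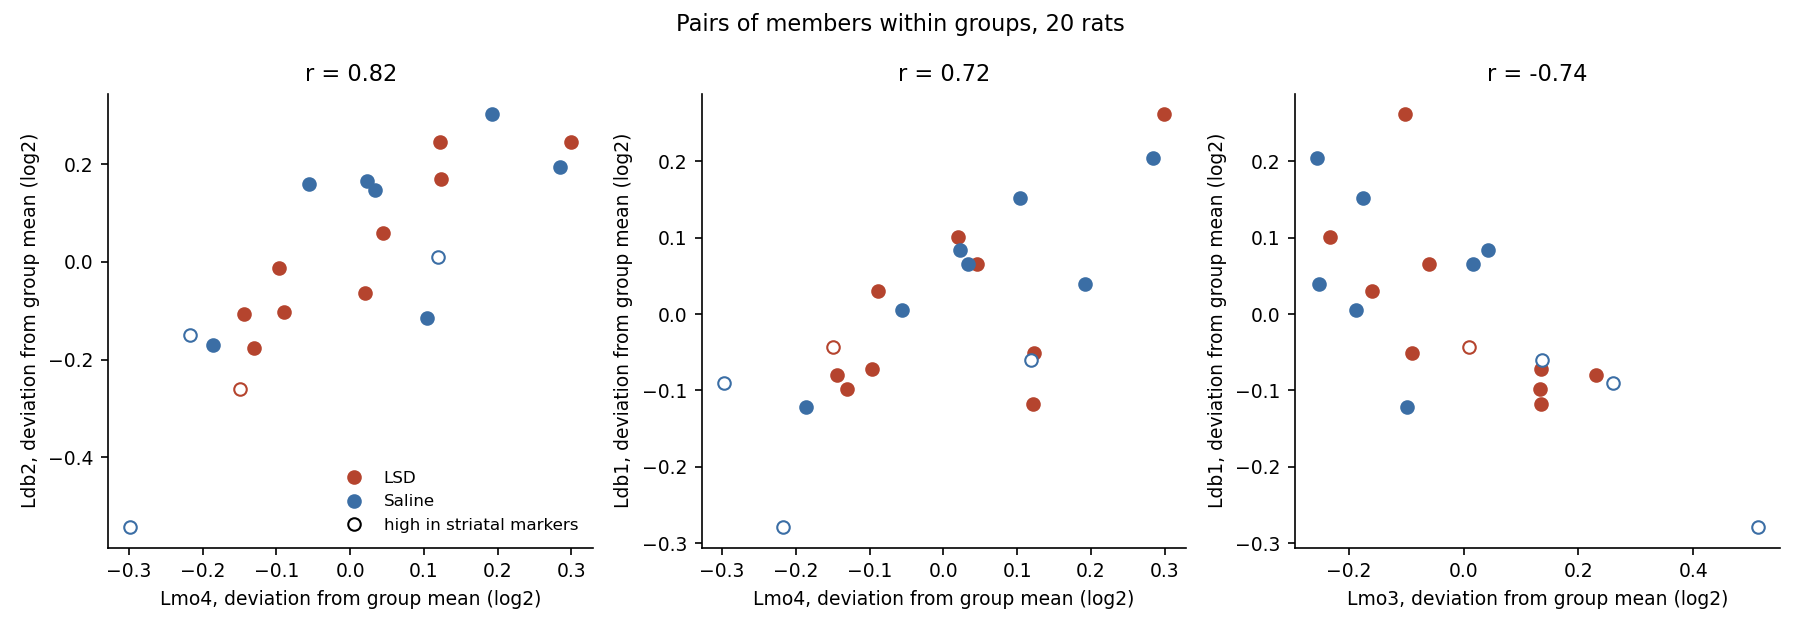
Deviation of each rat from its group mean, in log2(RPM + 1), for Lmo4 and Ldb2, Lmo4 and Ldb1, and Lmo3 and Ldb1, with r above each panel and open circles for the 4 libraries with high striatal markers. The first 2 pairs rise together, less closely by rank for Lmo4 and Ldb1 in LSD-treated rats (rho = 0.36). The third falls, with 1 open circle far to the lower right.

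No pair with *Lmo1* or *Lmo2* passed. Between *Lmo1* and *Lmo2* themselves, r was 0.02 (permutation p = 0.936, adjusted p = 0.936, n = 20). The 11 pairs that did not pass had adjusted p values from 0.19 to 0.936.

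The genes most like each of the 6 across the 20 rats, by the same Pearson r and given as a description, differed from gene to gene. For *Ldb2* they were *Fezf2* (0.91), which specifies deep-layer projection neurons, *Zfp238* (0.88) and *Shf* (0.87). For *Lmo3* they were *Bcas1* (0.88), a marker of newly formed oligodendrocytes, *Htr2c* (0.88), a serotonin receptor gene, and *Ptp4a2* (0.87), and r to *Htr2c* was 0.78 without the 4 libraries. For *Lmo4* they were *LOC102556116* (0.89), *Rac3* (0.88) and *Gpi* (0.88), and for *Ldb1* *Itm2c* (0.95), *Lrrc47* (0.94) and *Pcbp1* (0.94). For *Lmo1* they were *Gde1* (0.85), *Dgcr6* (0.84) and *Praf2* (0.83). The closest genes to *Lmo2* reached a lower r, namely *Gabpb1l* (0.77), *Casp8* (0.70) and *Ctrb1* (0.69), and had mean levels of only 0.855 to 1.46 RPM.

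The partners of these proteins were described from 3 lists. Their medians stand beside a median log2 fold change of 0.00 over all tested genes, and their counts of calls, like those of the cell type markers, beside 6.48% of all tested genes called higher and 8.54% called lower. Of 12 LIM-homeodomain genes, which compete with LIM-only proteins for LDB, 5 were tested. None was called in either direction by edgeR or by DESeq2, 1 had an unadjusted p under 0.05, and the median log2 fold change was -0.12. The most abundant by RPM was *Lhx2*, with 60.1 ± 3.99 RPM in LSD-treated rats and 68.2 ± 9.85 RPM in controls (SD, n = 10 each), a log2 fold change of -0.18 (adjusted p = 0.0824). Without the 4 libraries, 1 of 4 tested genes was called lower and none higher, in a fit that called 10.4% of all tested genes lower and 10.5% higher.

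Of 7 genes that encode SSBP proteins, which stabilise LDB, or other proteins that bind LDB or LIM-only proteins, 6 were tested, 1 was called higher and 2 lower (6.48% and 8.54% of all tested genes), with a median of 0.02. *Ssbp4*, the most abundant of them by RPM, was down-regulated from 195 ± 36.6 to 157 ± 17.4 RPM (log2 fold change -0.32, adjusted p = 0.0255). *Deaf1*, a transcription factor that binds LMO4, was down-regulated from 58.7 ± 8.18 to 48.5 ± 4.62 RPM (log2 fold change -0.28, adjusted p = 0.0187). For both genes all 10 LSD-treated rats lay below the control median. *Brca1*, a DNA repair gene whose protein also binds LMO4, was up-regulated from 1.22 ± 0.285 to 1.68 ± 0.154 RPM (log2 fold change 0.45, adjusted p = 0.0198), on 11 to 46 reads per library. Without the 4 libraries, its adjusted p was 0.0534. The call of *Brca1* was also lost with reads drawn to the smallest library, and with the span correction and replicate block together. It was kept under 7 of 10 alternatives and in all 20 fits that left out 1 rat.

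Of 17 genes of the basic helix-loop-helix, GATA and other factors that LIM-only proteins join, 13 were tested. No gene was called higher and 3 were called lower (6.48% and 8.54% of all tested genes), with a median of -0.04. In lists this small, these counts are a description and set no list apart from other genes. *Lyl1*, a relative of *Tal1*, was down-regulated from 4.84 ± 0.943 to 3.53 ± 0.887 RPM (log2 fold change -0.45, adjusted p = 0.0273). *Gata2*, a GATA factor of blood progenitors and endothelial cells, was down-regulated from 7.38 ± 1.10 to 5.85 ± 0.971 RPM (log2 fold change -0.34, adjusted p = 0.0276). *Tcf3*, an E-protein that pairs with TAL1 or LYL1, was down-regulated from 34.3 ± 3.81 to 29.0 ± 2.87 RPM (log2 fold change -0.24, adjusted p = 0.023). The most abundant of the list by RPM, the E-protein gene *Tcf4*, had 88.2 ± 11.9 RPM in LSD-treated rats and 78.9 ± 10.3 RPM in controls (log2 fold change 0.16, adjusted p = 0.198). *Tal1* itself differed by 0.00 (adjusted p = 0.986) and *Gata1* is listed at 0 reads in all 20 libraries, as is the inhibitory neuron marker *Npy*, while *Rlim* of the list above had 0 to 4 reads. *Npy* is a gene that cortex is known to express, so a 0 in this matrix may mean that reads were not assigned to the gene, and is not read as a lack of expression. The slope of a library's deviation in log2 RPM over gene span had a median of 0.0496 in LSD-treated rats and -0.0336 in controls. With a correction for gene span, the calls of *Ssbp4*, *Lyl1* and *Gata2* were lost. These 3 calls were also lost without LSD-treated rat 8, control 1 or control 4, with adjusted p values of up to 0.0545, 0.0574 and 0.056, and that of *Tcf3* without control 4 (adjusted p = 0.0506).

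Since *Lmo2*, *Lyl1* and *Gata2* are also genes of endothelial and blood cells, markers of these cells were read beside them. The other 10 tested genes of the last partner list were not called. Among them, besides *Tal1*, were *Erg* (-0.03, adjusted p = 0.807), *Fli1* (-0.04, adjusted p = 0.763) and *Runx1* (-0.19, adjusted p = 0.237). Of 14 endothelial markers tested, 1 was called lower and 1 higher (8.54% and 6.48% of all tested genes), and 10 had a negative log2 fold change, with a median of -0.15. They summed to 420 to 553 RPM in LSD-treated rats and to 471 to 660 RPM in controls. *Cldn5*, the tight junction gene of brain endothelium, had 106 ± 9.11 RPM in LSD-treated rats and 120 ± 12.9 RPM in controls (log2 fold change -0.18, adjusted p = 0.0517). *Eng* was called lower (-0.25, adjusted p = 0.0422) and *Abcb1a* higher (0.25, adjusted p = 0.0416). Without the 4 libraries, 4 of the 14 endothelial markers were called lower and none higher, in a fit that called 10.4% of all tested genes lower and 10.5% higher.

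Of 8 markers of mural cells, *Kcnj8* was called lower (-0.45, adjusted p = 0.0188) and none higher, with a median of -0.20 and sums of 178 to 322 RPM in LSD-treated rats and 195 to 489 RPM in controls. Of 4 markers of blood cells, the haemoglobin gene *Hbb* was called lower (-0.50, adjusted p = 0.0434), with a median of -0.28 and sums of 87.2 to 215 RPM and 135 to 365 RPM. None of the 9 microglial markers was called by edgeR or DESeq2 or had an unadjusted p under 0.05. Their median was 0.01, and they summed to 330 to 598 RPM in LSD-treated rats and to 343 to 456 RPM in controls. Without the 4 libraries, 1 microglial marker was called higher and none lower. In the same fit 2 mural markers were called lower and none higher, with a median of -0.32. That fit called 10.5% of all tested genes higher and 10.4% lower. The part of endothelial, mural and blood cell content in the levels of *Lmo2*, *Lyl1* and *Gata2* was not tested.

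Markers of neurons were read beside *Lmo1*, *Lmo3*, *Lmo4* and the LDB genes. Of 7 tested markers of inhibitory neurons, *Slc32a1* (-0.34, adjusted p = 0.018) and *Sst* (-0.28, adjusted p = 0.0222) were called lower, and *Gad2* (0.23, adjusted p = 0.0369) and *Vip* (0.27, adjusted p = 0.0486) higher. Of 8 deep-layer markers *Etv1* was called higher (0.26, adjusted p = 0.0157). None of 5 excitatory and 6 upper-layer markers was called by edgeR or DESeq2, and 1 and 2 of them had an unadjusted p under 0.05. Without the 4 libraries, 1 upper-layer and 1 deep-layer marker were called higher and 1 of each lower, and no excitatory marker was called. That fit called 10.5% of all tested genes higher and 10.4% lower. The 7 striatal markers were all lower in LSD-treated rats, with a median of -0.61, 6 unadjusted p values under 0.05 and no call by edgeR or DESeq2. Without the 4 libraries the median was -0.22 and 1 was called lower, in a fit that called 10.4% of all tested genes lower. The part of striatal content in the level of *Lmo1* was not tested, and the difference of *Lmo1* without the 4 libraries is the -0.28 given above.

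Of the glial markers, *Cldn11* (-0.46, adjusted p = 0.0175) was the only one called among 7 of oligodendrocytes, which had a median of -0.36 and summed to 2354 to 5979 RPM in LSD-treated rats and 2388 to 7724 RPM in controls. Of 7 astrocyte markers *Slc1a2*, the main glutamate transporter gene, was called higher (0.41, adjusted p = 0.0423), with a median of 0.07. Several marker calls lie close to the threshold: without the 4 libraries those of *Abcb1a* (adjusted p = 0.131), *Sst* (0.096) and *Slc1a2* (0.0665) were lost, with the span correction those of *Abcb1a*, *Hbb*, *Slc1a2*, *Etv1*, *Gad2* and *Sst* were lost, and *Eng*, *Abcb1a*, *Hbb*, *Slc1a2*, *Gad2* and *Vip* kept theirs in 6 to 9 of the 20 fits that left out 1 rat.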

How the data were processed

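The authors deposited raw counts per gene, made with HTSeq-count from Hisat2 alignments to rn6 after trimming by TrimGalore. Tool versions, annotation and strand setting are not given in the sources used here. The 5 unnamed rows that end the matrix, assumed to be HTSeq-count's summary counters (25.5% to 29.0% of reads per library), were left out. Symbols that read as dates were kept as given.

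Genes that reached 5 reads in 10 or more libraries, the study's filter, were tested in R 4.3.3 with edgeR 4.0.16 (TMM, quasi-likelihood F test, Benjamini-Hochberg adjustment over 16605 genes, threshold 0.05). DESeq2 1.42.0, 1 surrogate variable from sva 3.50.0, other scalings and filters, gene span, reads drawn to 11098076 per library, the replicate number as a block and each rat left out were alternatives. Leaving out libraries with over 300 RPM of striatal markers was chosen after seeing the data. Correlations used log2(RPM + 1) less the group mean and 100000 permutations within groups (Python 3.11.15, numpy 2.4.6, scipy 1.17.1). Both steps were tested on simulated data.

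The members and lists were chosen with earlier results of these data known. Genes named are the 6 members, each list's called genes and its most abundant or first gene, up to 4 called markers per list, and the 3 genes most like each member. A few others (Tal1, Erg, Fli1, Runx1, Gata1, Npy, Rlim) were named after their values were seen. Spans come from the GRCr8 annotation by symbol, for 89.9% of tested genes. Transcript lengths were not used here, so every order of genes by abundance is one of RPM without correction for length. It does not rank transcript numbers. The groups are separate rats, and the spread between them sets the precision.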

Additional observations from a re-analysis of the deposited data

Results flagged for a closer look

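Of 58 groups of 10 values looked at, 3 had 1 rat far from the other 9, and chance alone sets a rat apart in about 1 in 20 groups. The summed microglial markers were highest in LSD-treated rat 3, at 597.9 RPM, and the gap to the next rat was 0.778 of the range of the group. The summed striatal markers were highest among LSD-treated rats in rat 9, at 450.6 RPM, with a gap of 0.734 of the range. The slope of the deviation in log2 RPM over gene span was lowest among controls in rat 9, at -0.2253, with a gap of 0.494 of the range. Over all rats this slope ran from 0.0159 to 0.0831 in LSD-treated rats and from -0.225 to 0.0285 in controls. It thus differed between the groups, and its part in the differences of genes between them was not tested. None of the 3 outlying values is that of one of the 6 genes. In LSD-treated rat 3 *Lmo2* lay at 9.89 RPM and *Lmo1* at 10.2 RPM, within the range of the group.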

How the results depend on the processing

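*Lmo1* stayed lower and past the threshold under all 10 alternatives (log2 fold change -0.44 to -0.28, adjusted p 0.000581 to 0.0284) and in all 20 fits without 1 rat (-0.44 to -0.35). *Lmo2* lay between -0.56 and -0.48 under the alternatives and between -0.57 and -0.50 without 1 rat. Of the 5 other members 1 to 2 were called without 1 rat, and 2 without the libraries high in striatal markers, *Ldb1* being the second. Over the alternatives the adjusted p of *Ldb1* ranged from 0.0188 to 0.14, and it was 0.0516 with DESeq2. *Lmo3* turned to 0.068 without the libraries high in striatal markers. *Ldb2* turned to 0.0195 with scaling by total counts and ranged from -0.0759 to 0.0117 without 1 rat. With the span correction *Lmo3* lay at -0.145 (adjusted p = 0.288) and *Ldb2* at -0.146 (adjusted p = 0.307).

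The 1076 genes called higher became 568 with the span correction, 1701 without the libraries high in striatal markers and 663 (without LSD-treated rat 8) to 1669 (without control 2) with 1 rat left out. The 1418 called lower became 836 without a filter on low counts, and 858 beside 1504 higher with scaling by total counts. Of the 4 pairs, 2 passed without the libraries high in striatal markers, 1 in LSD-treated rats alone and 3 to 4 without 1 rat. For each of these changes the cause was not tested.

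With a replicate block, which takes the number in the labels as a pairing, 1355 genes were called higher and 1606 lower, 1 of the 5 members was called and 0 pairs passed. Rats with the same number deviated together with a mean correlation of 0.145 (range -0.259 to 0.467), against -0.0157 for other pairs, and 6 of 10 exceeded 0.1. Of the LSD-treated rats, 1 correlated best with the control of its own number. These values do not settle whether the numbers pair the rats, and the main fits leave the numbers out. With 117 to 337 reads per library for *Lmo2* and 129 to 352 for *Lmo1*, these are the members with the fewest reads, and depth limits them most.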

Other observations

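The correlation of *Lmo2* and *Lmo4* between rats had opposite signs in the 2 groups. Over the 20 rats r was 0.11 (permutation p = 0.651, adjusted p = 0.931 over 15 pairs). In the 10 controls it was 0.79 (permutation p = 0.00704, adjusted p = 0.0302) with rho = 0.75 (permutation p = 0.0175). In the 10 LSD-treated rats it was -0.58 (permutation p = 0.0816, adjusted p = 0.306) with rho = -0.22 (permutation p = 0.537). Without the libraries high in striatal markers the values were 0.85 and -0.65. The pair was singled out after its values were seen, and the difference between the groups was not tested.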
